A study of Mus musculus with 8 samples.

Results

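Ascending aortas of 5 mice with mucopolysaccharidosis VII (MPS VII) were set against those of 3 normal mice, on Illumina arrays that each held RNA of 1 mouse. The MPS VII arrays were chosen by their titles, 5 of 8 arrays in all, and join 3 mice with a dilated aorta and 2 mice whose aorta was not dilated. The dilated aortas came from females of 7.8 and 9.1 months (replicates 1 and 2) and a male of 6 months (replicate 3), and the aortas without dilatation from a female of 5.8 months (replicate 1) and a male of 6.7 months (replicate 2). The normal aortas came from females of 5.8 and 7 months (replicates 1 and 3) and a male of 6.4 months (replicate 2). All 8 mice are labelled C57BL/6. The labels name neither the allele behind the MPS VII genotype nor a treatment. The comparison asked which genes were shifted in all 5 MPS VII aortas alike, with or without dilatation.

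MPS VII is an inherited lysosomal storage disease. Cells lack working beta-glucuronidase, the enzyme encoded by Gusb, which removes glucuronic acid from the ends of heparan, dermatan and chondroitin sulfate chains, and fragments of these glycosaminoglycans collect in lysosomes. In the normal ascending aorta, smooth muscle cells lie between sheets of elastin, with endothelium inside and fibroblasts and fat outside. In such whole-tissue RNA, fewer cells of a type and less RNA per cell cannot be told apart.

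The deposited intensities are on a linear scale and share nearly the same distribution on every array, so a change in total RNA cannot be seen in them. Differences are on the log2 scale after 50 was added to each intensity, which understates the change of dim genes. A gene was called changed at an adjusted p under 0.05 in limma, and "above background" means an intensity over 25.6. Probes passed that level at 45.0% to 45.2% on each array. Across all 10040 genes tested, 8955 of them named, principal component 1 carried 55.2% of the variance and set all 5 MPS VII arrays (scores -36.6 to -9.53) apart from the 3 normal arrays (28.5 to 33.1). Each array is a separate mouse by its title.

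MPS VII differed from normal at 2389 of the 10040 genes tested (23.8%), of which 1021 were higher (10.2% of all tested) and 1368 lower (13.6%). The change was at least 2-fold at 322 of the higher and 181 of the lower genes. Leaving out normal replicate 1 or normal replicate 3 left 1231 and 1123 called genes, and every one of the 2389 kept its direction in both. Whether or not a gene was called, the 5 MPS VII values lay outside the range of the 3 normal values, all on the same side, at 3222 genes (32.1%). Among called genes this held for 931 higher and 1312 lower genes, and 146 called genes overlapped.

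A called gene counted as shifted alike when its 5 MPS VII values lay on the same side of all 3 normal values and the least shifted array had moved from the normal mean by at least 0.5 of the most shifted array. This held for 816 genes (8.13% of all tested), 253 of them higher (2.52%) and 563 lower (5.61%). Falls were the more even on the scale used here: 41.2% of the called falls met the rule, against 24.8% of the called rises. The median ratio of least to most shifted array was 0.46 for falls and 0.39 for rises. The size of this gap depended on the amount added to each intensity. With 16 added, 508 of 1275 called falls and 309 of 985 called rises met the rule, a narrower gap. With 100 added, 593 of 1415 called falls and 223 of 959 called rises did, a wider gap. Id3 (ratio 0.499936) lay just outside the bound and Rad52 (ratio 0.500252) just inside it, and both calls ended without normal replicate 2, that of Id3 also without normal replicate 1 and that of Rad52 without normal replicate 3, dilated replicate 1 or 2 or either not dilated replicate. Of the 816 genes, 529 (64.8%) were called under each of 21 other settings of the fit, each array left out in turn among them and the adipocyte covariate described below left aside, against 328 of the 1573 called genes that were not shifted alike (20.9%). The evenness rule and the test read the same values, so these shares are a description.

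**Figure D1:**
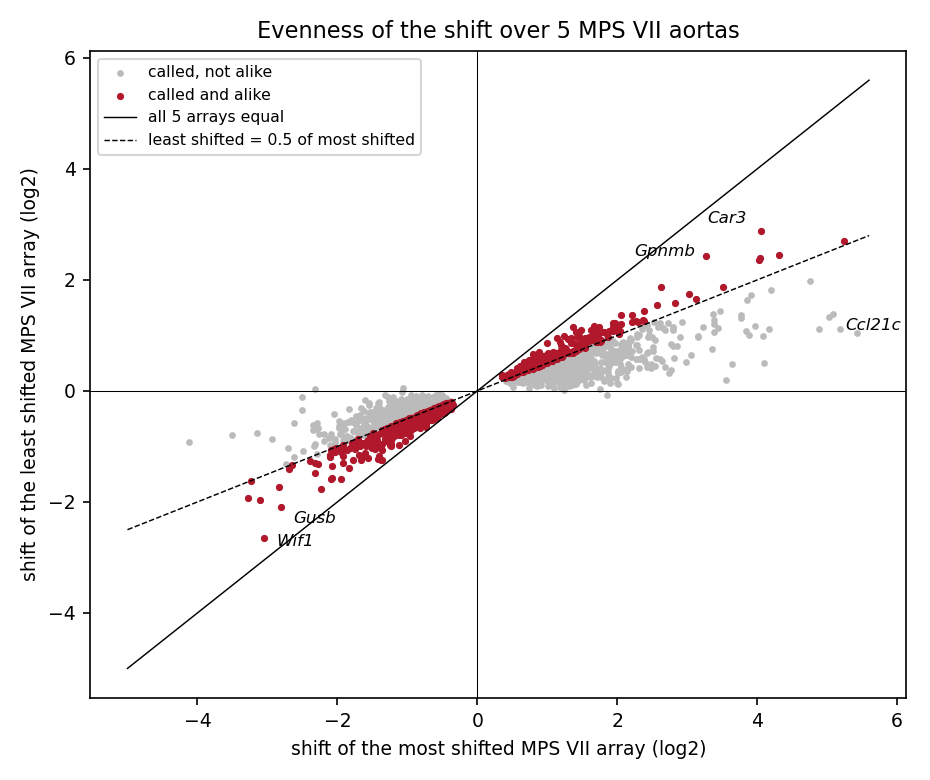
For each called gene, the shift from the normal mean (log2 units) of the least shifted MPS VII array (vertical axis) is plotted against that of the most shifted MPS VII array (horizontal axis). Red points are the 816 genes shifted alike, between the dashed line (ratio 0.5) and the solid line (all 5 arrays equal). Wif1 lies close to the line of equal shifts and Ccl21c far from it.

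No gene was called between the dilated and the not dilated MPS VII aortas in limma (0 of 10040, 0%), with 910 genes at an unadjusted p under 0.05. The 5 MPS VII arrays were not equally shifted from normal. Dilated replicate 3 was the most shifted array at 34.7% of the called rises and 52.1% of the called falls. The median shift of the called rises was 0.71, 0.78 and 0.92 in dilated replicates 1, 2 and 3 and 0.71 and 0.66 in not dilated replicates 1 and 2. For the called falls it was -0.49, -0.55 and -0.72 in the dilated aortas and -0.60 and -0.52 in those without dilatation. Every named gene below whose values are given array by array is listed with dilated replicates 1 to 3 first, then not dilated replicates 1 and 2, then the normal mice. Statements below that the 3 dilated aortas lay above or below the 2 others describe an order of values. That contrast passed for no gene in this fit.

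Gusb itself was low in every MPS VII aorta. Its brightest probe read 190.1, 218, 184, 112 and 125 in the MPS VII aortas, against 1094, 992 and 1172 in normal aortas. The groups were far apart, and the 2 mice without dilatation had the lowest levels. The mean difference was -2.42 on the log2 scale (standard error, SE, 0.17, adjusted p = 0.000138), and Gusb was shifted alike. A second Gusb probe was dim in both groups (means of 34.4 in MPS VII and 41.5 in normal aortas) and did not pass (log2 difference -0.12), and the third was not above background on any MPS VII array. Of the 20 genes nearest Gusb on its chromosome, 10 could be tested and 3 were called, all lower in MPS VII, against 23.8% of all genes tested. Tpst1, a tyrosylprotein sulfotransferase, read 2011, 2029.6, 1424, 1749.9 and 2162 in MPS VII aortas, against 2835, 3405 and 2988 in normal aortas (log2 difference -0.71 (adjusted p = 0.00986)). Rabgef1, an exchange factor of endosome traffic, differed by -0.44 and was shifted alike, a call that ended without normal replicate 3 (adjusted p there 0.0575). Phkg1 differed by -0.59 with overlapping groups, and its call ended under 8 alternatives, among them those without dilated replicates 2 or 3, not dilated replicate 2, and normal replicates 2 or 3.

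**Figure D2:**
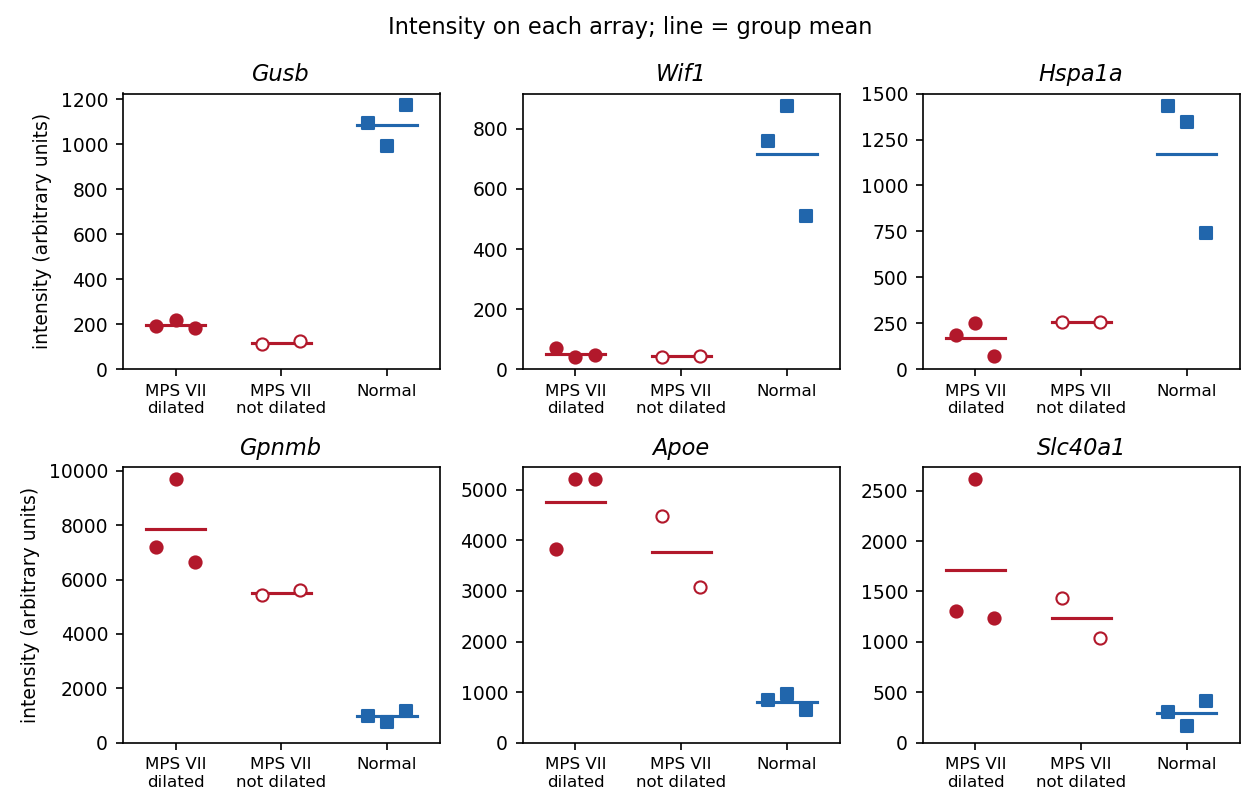
Intensity on each array (vertical axes, linear scale in arbitrary units) of 3 genes that fell and 3 that rose. Filled circles are dilated MPS VII aortas, open circles MPS VII aortas without dilatation and squares normal aortas, and lines are group means. In every panel the 5 MPS VII arrays lie on the same side of all 3 normal arrays.

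The 12 evenly shifted rises whose least shifted array had moved furthest are described first. Car3, a carbonic anhydrase abundant in fat, read 2743, 4098, 6099, 6268 and 3545 in MPS VII aortas, against 540.3, 248 and 258 in normal aortas (log2 difference 3.53, SE 0.31). Gpnmb, a membrane glycoprotein of lysosomes in macrophages, read 7190.1, 9693, 6649.8, 5424 and 5603 in MPS VII aortas, against 994, 782 and 1154 in normal aortas (2.75, SE 0.20). For both genes the lowest MPS VII value was several times the highest normal value. Apoe, the lipid-carrying apolipoprotein E, read 3834, 5218, 5218, 4479 and 3067 in MPS VII aortas, against 838, 954 and 642 in normal aortas (2.35, SE 0.20). Slc40a1, the iron exporter ferroportin, read 1308, 2612, 1234, 1435 and 1041 in MPS VII aortas, against 302, 163 and 412 in normal aortas (2.20, SE 0.31). The MPS VII values of Apoe span a narrow range, and those of Slc40a1 are lifted by dilated replicate 2. Ccl8, a chemokine that attracts monocytes, read 975, 1039, 4577, 856 and 752 in MPS VII aortas, against 49.3, 129 and 54.1 in normal aortas (3.41, SE 0.51), with dilated replicate 3 far above the other MPS VII mice.

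Lyz2, the lysozyme of macrophages, averaged 3880.4 ± 1449.6 in MPS VII and 520.2 ± 301 in normal aortas (SD, n = 5 and 3). The near-identical Lyz1 can share its signal. Trf, the iron carrier transferrin, averaged 1404 ± 577 in MPS VII and 214 ± 57.8 in normal aortas, and the cytochrome P450 gene Cyp2e1 7726 ± 2872 and 725 ± 357. Acsm3, an acyl-CoA synthetase, averaged 1308 ± 527 in MPS VII aortas, against 287 ± 156 in normal aortas. The remaining members of the 12 evenly shifted rises with the largest least shift were Sdc3, the heparan sulfate proteoglycan syndecan 3 (log2 difference 1.89), Atp1b1, a subunit of the sodium pump (1.72), and Renbp, the renin-binding protein (1.73). Their 5 MPS VII values were 1815 to 3271 for Atp1b1, against 643 to 694 in normal aortas, and 482 to 808 for Renbp, against 134 to 178. All 12 kept their call under every alternative other than the adipocyte covariate described below, with which only Gpnmb of them was called. At its lowest over the alternatives, the difference was 0.16 of its main size for Acsm3, 0.54 for Cyp2e1 and 0.62 for Car3. For the others this lowest share ran from 0.81 (Slc40a1) to 0.95 (Gpnmb).

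**Figure D3:**
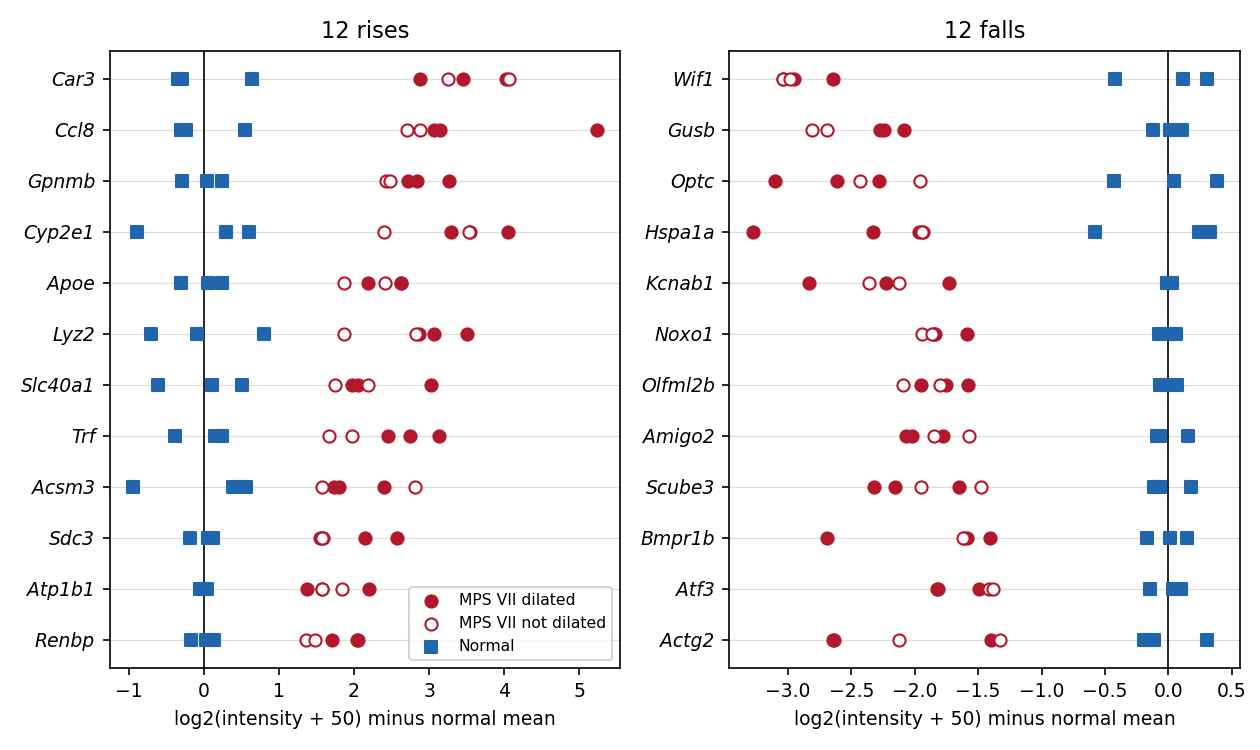
Each point is the level of a gene on 1 array, log2(intensity + 50), minus the mean of the 3 normal arrays (horizontal axes), for the 12 rises and 12 falls whose least shifted MPS VII array had moved furthest. Filled circles are dilated MPS VII aortas, open circles MPS VII aortas without dilatation and squares normal aortas. No MPS VII point overlaps a normal point, and dilated replicate 3 stands alone for Ccl8 and Bmpr1b.

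Among the 12 evenly shifted falls chosen the same way, the most even was that of Wif1, a secreted inhibitor of Wnt signalling. It read 69.6, 40.8, 46.7, 41.2 and 44.5 in MPS VII aortas, against 760.2, 876 and 510.0 in normal aortas (log2 difference -2.93, SE 0.17, adjusted p = 8.1e-05). All 5 MPS VII values lay little above background, where the 50 added to each intensity narrows differences on the log2 scale. Dilated replicate 1 was the highest of them. Optc, the small leucine-rich proteoglycan opticin, read 137, 98, 55.7, 118 and 184 in MPS VII aortas, against 887, 1132 and 625 in normal aortas (-2.48, SE 0.25). Kcnab1, a beta subunit of potassium channels, read 1463, 1023, 652, 1101 and 928 in MPS VII aortas, against 4921, 5059 and 4921 in normal aortas (-2.25, SE 0.21), and its second probe fell alike (-2.05, adjusted p = 0.00113). Dilated replicate 3 had the lowest level of Optc and of Kcnab1.

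Noxo1, an organiser of the superoxide-producing NADPH oxidase 1, read 62.3, 43.6, 44.5, 37.7 and 42.9 in MPS VII aortas, against 292, 270.2 and 302 in normal aortas (-1.82, SE 0.11). Olfml2b, an olfactomedin-like protein, read 1079, 954, 826, 741 and 921 in MPS VII aortas, against 3507, 3309 and 3186 in normal aortas (-1.84, SE 0.13). Both genes varied little within either group on the log2 scale used, and the MPS VII values of Noxo1 lay little above background. Amigo2, a membrane adhesion protein, read 557 to 808 in MPS VII aortas, against 2346 to 2788 in normal aortas (-1.86), and Scube3, a secreted protein with epidermal growth factor repeats, 136 to 282 against 804 to 1001 (-1.91). Bmpr1b, a type I receptor for bone morphogenetic proteins, read 202, 172, 53.5, 169 and 167 in MPS VII aortas, against 690.4, 627 and 546 in normal aortas (-1.78), with dilated replicate 3 well below the other MPS VII mice. The other evenly shifted falls of this rank, Hspa1a, Atf3 and Actg2, are given with their groups. The highest adjusted p of these 24 genes was 0.00627, that of Acsm3.

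Among genes of the lysosome, Gusb and Hyal1 fell, Hexa and Naglu rose, and 12 of 24 enzymes and membrane proteins outside glycosaminoglycan breakdown were called higher. Of 9 tested genes of glycosaminoglycan breakdown, 2 were called higher and 2 lower, with a median log2 difference of -0.10, against -0.05 over all genes tested. Of all genes tested, 10.2% were called higher and 13.6% lower. Hyal1, a hyaluronidase of lysosomes, read 973, 724, 509, 956 and 1045 in MPS VII aortas, against 2718, 2727 and 2563 in normal aortas (log2 difference -1.65 (adjusted p = 0.00166)), and was shifted alike. Hexa, the alpha subunit of beta-hexosaminidase, read 4009, 4241, 3151, 2572 and 2739 in MPS VII aortas, against 1774, 1696 and 1887 in normal aortas (0.86 (adjusted p = 0.00925)). The groups did not overlap for either gene, and Hexa was higher in the 3 dilated aortas than in the 2 others. The second rise, Naglu (0.46), was small, and its call ended under 11 alternatives, each normal replicate and dilated replicates 1 and 2 and not dilated replicate 1 left out among them.

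Of 24 other tested genes of lysosomal enzymes and membrane proteins, 12 were called higher and none lower, 5 of them alike, with a median log2 difference of 0.41. Besides Gpnmb, the evenly shifted members were Man2b1 (alpha-mannosidase), Psap (prosaposin, source of the saposins that help degrade sphingolipids), Grn (progranulin) and Ctsa (cathepsin A). Man2b1 read 4014, 3913, 3870.4, 3018 and 3834 in MPS VII aortas, against 1868, 2128 and 1886 in normal aortas (0.91 (adjusted p = 0.00212)). Psap, one of the brightest genes of the list, averaged 17577 ± 2055 in MPS VII and 10606 ± 1044 in normal aortas (0.72 (adjusted p = 0.00525)), and Grn 3623 ± 415 and 2221 ± 217 (0.69 (adjusted p = 0.00587)). For these 3 genes every MPS VII value exceeded every normal value. Laptm5, a lysosomal protein of blood-derived cells, averaged 7545 ± 2739 in MPS VII and 2156 ± 215 in normal aortas, and was less even (ratio 0.32).

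Of 12 cathepsins and legumain, 4 were called higher, 3 of them alike, and none lower. Ctsl, a cysteine protease of lysosomes, was not above background in any normal aorta and read 83.1, 133, 92.6, 45.3 and 100.3 in MPS VII aortas, at least 3.36-fold higher (adjusted p = 0.000747). Ctsk, cathepsin K, which cleaves collagen and elastin, read 2072, 2662, 1643, 1561 and 1646 in MPS VII aortas, against 799, 653 and 714 in normal aortas (1.32 (adjusted p = 0.00212)). Ctsz rose alike (0.74 (adjusted p = 0.00731)). Lgmn, legumain, rose less evenly (1.29 (adjusted p = 0.0109)), and its call ended without normal replicate 3 (adjusted p there 0.0533). Of 14 tested subunits of the proton pump that acidifies lysosomes, the V-ATPase, 6 were called higher and none lower. Atp6v1b2 read 969, 1193, 1375, 1155 and 1065 in MPS VII aortas, against 637, 573 and 499.5 in normal aortas (0.95 (adjusted p = 0.00244)), and was shifted alike. The other calls of this pump (Atp6v1g1, Atp6v0a1, Atp6v1c1, Atp6v1d and Atp6v0d1) had log2 differences of 0.34 to 0.54 and ended when normal replicate 1 or normal replicate 3 was left out. All but Atp6v1g1 also ended without normal replicate 2, all but Atp6v0a1 without dilated replicate 2, and Atp6v0d1 without dilated replicates 1 or 3 or not dilated replicate 2. In autophagy, 2 of 20 genes were called higher (Gabarapl1, 1.06, and Sqstm1, 0.77) and 3 lower, with Atg7 (-0.61) and Atg16l1 (-0.55) shifted alike, shares near those over all genes. The call of Sqstm1 ended without normal replicate 3.

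The transcription factor TFEB binds the letters TCACGTGA upstream of many lysosomal genes. That word, which reads the same on both strands, was searched from 250 bases before to 50 after the start of each gene in RefSeq (GRCm38.p6). It was found at 8 of 183 evenly shifted rises with a promoter in the table (4.37%), 5 of 411 evenly shifted falls (1.22%), 150 of all 7248 tested genes (2.07%) and 304 of all 27025 genes (1.12%). Among the lists it was found at 3 of 10 V-ATPase subunits, 2 of 23 lysosomal genes and 1 of 8 cathepsins, Ctsd. The promoters of Ctsa, the evenly shifted lysosomal rise that holds the word, and Atp6v0d1, the called V-ATPase subunit that does, are shown with the word in capitals, each as 120 bases ending 20 bases past the gene's start. Ctsa, chr2:164833673-164833792, plus strand, and Atp6v0d1, chr8:105566045-105566164, minus strand.
Ctsa: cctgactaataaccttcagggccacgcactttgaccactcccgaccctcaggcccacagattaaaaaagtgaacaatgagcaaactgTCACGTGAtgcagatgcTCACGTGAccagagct
Atp6v0d1: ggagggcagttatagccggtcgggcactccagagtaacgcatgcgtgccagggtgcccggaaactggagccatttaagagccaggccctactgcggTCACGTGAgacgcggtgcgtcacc
Ctsa holds the word at 2 places and Atp6v0d1 at 1. Ctsa read 90.7, 115, 165, 102 and 120.3 in MPS VII aortas, against 26.7, 66 and 24.2 in normal aortas (0.94 (adjusted p = 0.00793)), while its 2 dimmer probes did not pass (-0.18 and 0.27). Atp6v0d1 read 2526, 2667, 2466, 2217 and 2238 in MPS VII aortas, against 1871, 2097 and 1726 in normal aortas (0.34 (adjusted p = 0.0482)), and its 3 further probes had differences of 0.61 to 1.17, each with an adjusted p under 0.05 when every probe was tested. In that fit the probe used here did not pass (adjusted p = 0.0509), and its call ended under 15 alternatives.

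**Figure D4:**
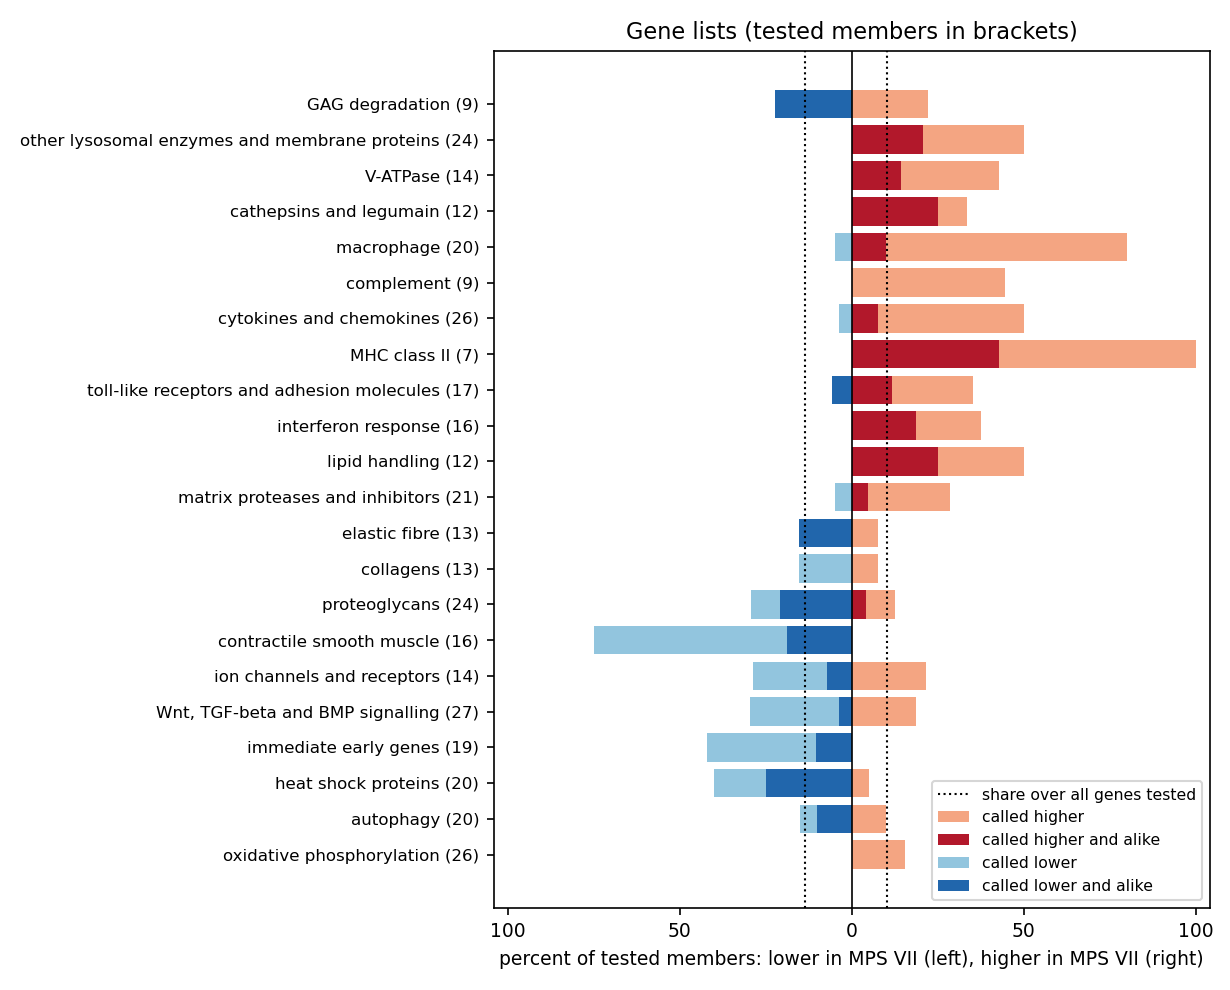
Percent of the tested members of each gene list that were called higher (right of 0) or lower (left of 0) in MPS VII aortas, with the evenly shifted share in the darker colour. Dotted lines give the shares over all genes tested (10.2% higher, 13.6% lower). MHC class II, macrophage and contractile smooth muscle lists reach the largest called shares.

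Macrophage genes rose in the MPS VII aortas, by amounts that differed widely between mice. Of 20 tested genes of a macrophage list, 16 were called higher and 1 lower, only Ms4a7 and Lyz2 of them alike, with a median log2 difference of 1.96. Their summed intensity was 19769 to 66174 in MPS VII aortas and 7476 to 12185 in normal aortas. Ms4a7, a membrane protein of macrophages, read 1026, 1252, 678, 307 and 590.0 in MPS VII aortas, against 2.39, 48.3 and 4.66 in normal aortas (3.51 (adjusted p = 0.00109)), and only 1 normal array was above background. Trem2, a lipid-sensing receptor of macrophages, read 758, 866, 1006, 164 and 337 in MPS VII aortas, against 36, 72 and 37.7 in normal aortas (2.57 (adjusted p = 0.00657)). Both genes were highest in the 3 dilated aortas and lowest in not dilated replicate 1. Fcgr3, an immunoglobulin receptor, averaged 777 ± 565 in MPS VII and 81.6 ± 47.9 in normal aortas (2.51 (adjusted p = 0.00492)). Cd163, the haemoglobin scavenger receptor of resident macrophages, was the exception. It read 204, 152, 314, 184 and 196 in MPS VII aortas, against 399, 357 and 309 in normal aortas (-0.66 (adjusted p = 0.0263)), groups that overlapped at dilated replicate 3, and the call ended when any normal replicate was left out. Itgam, Itgax, Msr1 and Marco were not above background on 2 arrays, and Csf1r and Cd68 had no probe here.

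All 7 tested genes of MHC class II presentation were called higher, 3 of them alike (median log2 difference 1.10). H2-Eb1 read 939.5, 806, 1295, 797 and 1105 in MPS VII aortas, against 412, 409 and 265 in normal aortas (1.33 (adjusted p = 0.00253)). Cd74, the invariant chain, read 1765, 1601, 2720.4, 1538 and 2168 in MPS VII aortas, against 767, 989.6 and 493 in normal aortas (1.35 (adjusted p = 0.00556)). H2-DMa differed by 1.10 and was the third evenly shifted member, and H2-Ab1 differed by 1.36. For these 4 genes dilated replicate 3 was the highest MPS VII aorta and not dilated replicate 2 the next. Of 9 complement genes 4 were called higher and none alike, against 10.2% of all genes tested called higher. C1qc read 1951, 1988, 2889, 868 and 1235 in MPS VII aortas, against 297, 493 and 258 in normal aortas (2.13 (adjusted p = 0.0042)), and C1qb averaged 3103 ± 1509 in MPS VII and 700.4 ± 226 in normal aortas (1.98 (adjusted p = 0.00741)). The call of C1qa (1.57) ended without normal replicate 3 and that of C1s1 (0.78) without normal replicate 1 or 3.

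Of 26 cytokines and chemokines, 13 were called higher and 1 lower, with Ccl8 and Ccl5 shifted alike. Over all genes tested these shares were 10.2% and 13.6%. Ccl5, which draws T cells and monocytes, read 78, 125, 126, 124 and 74 in MPS VII aortas, against 17.1, 28.2 and 26.2 in normal aortas (1.06 (adjusted p = 0.00272)). Ccl21c, a chemokine of lymphatic vessels and lymph nodes, read 1417, 1211, 625, 251 and 63.7 in MPS VII aortas and was not above background in any normal aorta, at least 17.4-fold higher (adjusted p = 0.00974). The Ccl21 copies Ccl21a (3.67) and Ccl21b (3.41) followed the same order over the MPS VII mice. These copies are near-identical, so their probes may read the same RNA. The call of Ccl21a ended without normal replicate 1, and that of Ccl21b without normal replicate 1 or 3. Csf1, a growth factor of macrophages, was the called fall of the list (-0.59 (adjusted p = 0.0137)), a call that ended without normal replicate 1. Among receptors and adhesion molecules, 6 of 17 were called higher and 1 lower. Vcam1 read 3427, 6217, 3820.2, 2823 and 4209 in MPS VII aortas, against 1110.5, 1017 and 1363 in normal aortas (1.73 (adjusted p = 0.00183)), and Icam1 844, 849, 991, 548 and 649.8 against 259, 173 and 237 (1.58 (adjusted p = 0.00141)). Both bind white blood cells to endothelium, and both were shifted alike. The fall was Rela, a subunit of NF-kappa B (-0.42), whose call ended without normal replicate 1 or 3. The call of Cd14 (1.51) ended when any normal replicate was left out. Tlr13 was not above background in any normal aorta, at least 3.68-fold higher in MPS VII (adjusted p = 0.0133).

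In the interferon list 6 of 16 genes were called higher and none lower, against 10.2% and 13.6% of all genes tested. Ifit3 read 1405, 1519, 1475, 1179 and 1249 in MPS VII aortas, against 648, 516 and 618 in normal aortas (1.14 (adjusted p = 0.00108)), one of the more even rises (ratio 0.73). Irf8, a transcription factor of myeloid cells, rose alike at a low level (0.70), with means of 59.8 ± 10.6 in MPS VII and 17.4 ± 7.88 in normal aortas. The calls of Psmb9 (0.77) and Irf1 (0.59) ended when normal replicate 1 or 2 was left out, and that of Irf1 also without normal replicate 3, dilated replicate 2 or 3, or not dilated replicate 2. None of 8 tested markers of T and NK cells was called (limma; 0 at an adjusted p under 0.05). Of 3 tested B and plasma cell markers, Cd79b (0.69) and Cd22 (at least 1.43-fold, above background in no normal aorta) rose alike at low levels, the call of Cd22 ending without normal replicate 3, while Cd79a and Ms4a1 were not above background on 2 arrays. Of 8 neutrophil markers, Lcn2 was called (2.72), a share near that over all genes tested, and that call ended without normal replicate 1 or 3. Lcn2 read 2496 in dilated replicate 3, against 101 to 423 in the other MPS VII aortas and -1.88 to 74.6 in normal aortas.

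Fat markers were higher in the MPS VII aortas. Of 20 adipocyte markers 17 were tested, 12 were called higher, 5 of them alike, and none was called lower. Over all genes tested, 10.2% were called higher and 13.6% lower. Their summed intensity was 67947 to 116267 in MPS VII aortas and 22510.5 to 50692 in normal aortas, with no overlap. Fabp4 and Retn were not above background on 2 arrays and Cfd had no probe here. Adipoq, the fat-cell hormone adiponectin, read 6624, 8448, 9693, 10224 and 6125 in MPS VII aortas, against 3913, 1404 and 3134 in normal aortas (1.62 (adjusted p = 0.00731)). Cidec, a lipid-droplet protein, read 1668, 2435, 2976, 2998 and 1387 in MPS VII aortas, against 772, 306 and 651 in normal aortas (1.93 (adjusted p = 0.00477)). Normal replicate 2 was lowest for both, and dilated replicate 3 and not dilated replicate 1 were the highest. Cebpa, a transcription factor of fat cells, rose alike (1.69 (adjusted p = 0.00249)). Of 7 brown fat markers, Ucp1 (1.32) and Cidea (1.26) were called higher, with groups that overlapped and calls that ended without normal replicate 2 or 3, and for Ucp1 also without dilated replicate 2 or either not dilated replicate.

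Of 12 genes of lipid handling 6 were called higher and none lower. Beside Apoe, Pltp, the phospholipid transfer protein, read 1570.1, 1173, 1742, 1121 and 1070.3 in MPS VII aortas, against 505, 518 and 504 in normal aortas (1.28 (adjusted p = 0.00183)), and Lpl, lipoprotein lipase, which is also on the adipocyte list, rose alike (1.25 (adjusted p = 0.0113)). Plin2, a lipid-droplet coat protein, rose less evenly (1.20 (adjusted p = 0.00477)). In oxidative phosphorylation 4 of 26 genes were called higher, against 10.2% of all genes tested. Their log2 differences were 0.55 (Atp5b) to 1.04 (Sdhb), and each of these calls ended without normal replicate 2 or 3. The calls of Atp5b and Cox5b ended also without dilated replicate 2, those of Cox5a and Cox5b without dilated replicate 3, and that of Cox5b without normal replicate 1 or either not dilated replicate.

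With the mean level of the adipocyte list as a covariate, 15 genes were called in place of 2389. The covariate separates the groups by itself, so what it shares with the genotype cannot be told apart. The median size of the difference over the 2389 genes was 0.65 without it and 0.50 with it, while the median SE was 0.15 and 0.26, and 96.1% kept their direction. Among the 15 were Wif1, Noxo1, Olfml2b and Vstm2b, all lower, and Gpnmb, Ctsl, Ms4a7 and Art4, all higher. With it, Gpnmb differed by 2.76 (SE 0.39), Ms4a7 by 4.94 (SE 0.53) and Wif1 by -2.63 (SE 0.31), each with an adjusted p of 0.0226 to 0.0464. Gusb was not among them. Art4, an ADP-ribosyltransferase that carries the Dombrock blood group, read 1788, 1735, 968, 1042 and 1544 in MPS VII aortas, against 417, 482 and 393 in normal aortas. The others were the rises Mprip, Rftn1, Fez2 and Rnd3, the falls Pigz and Wasf1, and 1 unnamed probe. Without the covariate, the call of Fez2 ended when dilated replicate 1 or 2, not dilated replicate 2 or normal replicate 1 or 3 was left out. Pigz, an enzyme of glycosylphosphatidylinositol anchor synthesis, was one of the most even falls of all (ratio 0.91), at 79.2, 69.5, 71.6, 80.2 and 74.1 in MPS VII aortas, against 258, 242 and 272 in normal aortas (-1.30 (adjusted p = 0.000138)). Wasf1, a regulator of actin assembly, read 105, 113, 114, 127 and 117 in MPS VII aortas, against 432, 282 and 393 in normal aortas (-1.33 (adjusted p = 0.000749)).

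**Figure D5:**
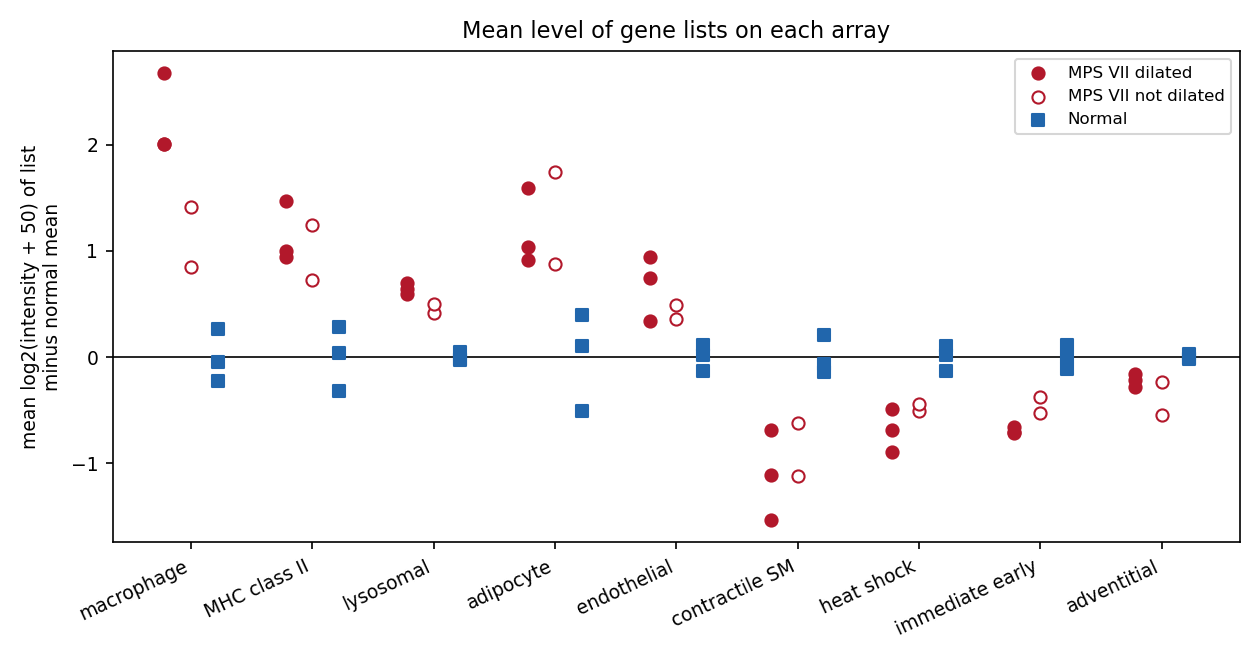
Mean log2(intensity + 50) of the tested members of 9 gene lists on each array, minus the mean of the 3 normal arrays (vertical axis, log2 units). Filled circles are dilated MPS VII aortas, open circles MPS VII aortas without dilatation and squares normal aortas. The macrophage list spreads widest over the MPS VII arrays, and in each list shown the 5 MPS VII arrays lie on the same side of all 3 normal arrays.

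Contractile genes of smooth muscle were lower in MPS VII aortas. Of 16 tested genes 12 were called lower and none higher, 3 of them alike, with a median log2 difference of -1.002. Over all genes tested, 13.6% were called lower and 5.61% were lower and shifted alike. Their summed intensity was 67462 to 127838 in MPS VII aortas and 145274 to 182927 in normal aortas. Actg2, the gamma smooth muscle actin, read 2821, 1162, 1155, 1684 and 2953 in MPS VII aortas, against 6954, 9262 and 6549 in normal aortas (-2.03 (adjusted p = 0.00397)). Cald1, caldesmon, read 68.4, 57, 62.3, 43.1 and 52.5 in MPS VII aortas, against 171, 167 and 168 in normal aortas (-1.04 (adjusted p = 0.0008)), and Cnn1, calponin, 57.3, 30.9, 22, 20.4 and 44.4 against 114, 169.9 and 147 (-1.20 (adjusted p = 0.00238)). These 3 were shifted alike, and dilated replicates 2 and 3 had the lowest levels of Actg2. Myocd, the coactivator that drives the contractile programme, read 3065, 2059.6, 1121, 2579.5 and 3079.8 in MPS VII aortas, against 6982, 6197 and 6452 in normal aortas (-1.52 (adjusted p = 0.00741)), and was lowest in dilated replicate 3, as was Ppp1r14a (-1.31). Des, desmin, fell by 1.45 with its lowest level in dilated replicate 2. The most abundant member, Acta2, the alpha smooth muscle actin, did not pass (-0.25 (adjusted p = 0.312)), with 51237, 40636, 30854, 40636 and 53195 in MPS VII aortas, against 45221, 56046 and 51237 in normal aortas, groups that overlapped. Dimmer Acta2 probes differed in the other direction, by 0.69 and 0.79, and did not pass either when every probe was tested. Myh11, smooth muscle myosin, differed by -0.89, a call that ended without dilated replicate 2 or any normal replicate. A CArG box, the binding word of serum response factor, was searched from 250 bases before to 50 after each start. It was found in 1 of 12 promoters of the list, that of Srf itself, against 1.72% of tested genes and 1.81% of all promoters. Sites elsewhere in these genes were not searched, so the count does not show that they lack such sites.

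Among markers of other cells of the wall, most did not pass. The shares called over all genes tested were 10.2% higher and 13.6% lower. Of 18 endothelial markers 7 were called higher and none lower (median log2 difference 0.58). Emcn, endomucin, read 499, 1293, 745, 694 and 579 in MPS VII aortas, against 209, 169 and 174 in normal aortas (1.73 (adjusted p = 0.00266)), Egfl7 differed by 1.14, Tie1 was not above background in any normal aorta (at least 2.41-fold higher, adjusted p = 0.00683), and all 3 were highest in dilated replicate 2. The one evenly shifted member, Flt1 (0.58), lost its call without normal replicate 1, and Pecam1 did not pass (0.50). A further Pecam1 probe differed in the other direction (-0.45) and did not pass either when every probe was tested. Of 14 markers of adventitial fibroblasts 5 were called lower and none higher (median log2 difference -0.09), with Tnxb, Clec3b and Scara5 shifted alike. Clec3b, tetranectin, read 136, 154, 156, 185 and 205 in MPS VII aortas, against 462, 439.9 and 490.0 in normal aortas (-1.25 (adjusted p = 0.000749)), and Tnxb, tenascin X, 1085, 1116, 1607, 1126 and 1701 against 3206, 3275 and 3471 (-1.32 (adjusted p = 0.00178)). Pi16 fell by 1.57 and Dpt, dermatopontin, by 0.87. The summed intensity of the adventitial list was 12873 to 20079 in MPS VII aortas and 22675 to 23019 in normal aortas. The part of these cell mixtures in the other differences was not tested.

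Matrix genes did not shift as a block. Over all genes tested, 10.2% were called higher and 13.6% lower. Of 13 elastic fibre genes 1 was called higher and 2 lower. Ltbp4, which binds latent TGF-beta and helps elastin assembly, read 3048, 3062, 2662, 3411 and 4036 in MPS VII aortas, against 8304, 7822 and 8206 in normal aortas (-1.32 (adjusted p = 0.0008)), and Mfap5, a microfibril protein, 2106, 1416, 1918, 1318 and 1428 against 3993, 4707 and 3291 (-1.27 (adjusted p = 0.00253)). Both were shifted alike. Eln, elastin, was the rise, at 11665, 5344, 5109, 5023 and 6292 in MPS VII aortas, against 2750.4, 3341 and 3108 in normal aortas (1.04 (adjusted p = 0.0191)), highest in dilated replicate 1, and its call ended without normal replicate 1 or 3. Of 13 collagens 1 was called higher, Col1a1 (1.04), and 2 lower, Col15a1 (-0.67) and Col1a2 (-0.49), and each of the 3 calls ended without normal replicate 3. The call of Col1a1 ended also without normal replicate 1, that of Col15a1 without normal replicate 1 or 2 or not dilated replicate 2, and that of Col1a2 without normal replicate 2 or dilated replicate 1 or 2. Of 24 proteoglycans 3 were called higher and 7 lower, 1 and 5 of them alike. Omd, osteomodulin, read 79.3, 88.4, 23, 53.4 and 78.7 in MPS VII aortas, against 241, 228 and 335 in normal aortas (-1.49 (adjusted p = 0.00253)), and Gpc6, a glypican, 126, 127, 143, 258 and 267 against 643, 621 and 619 (-1.59 (adjusted p = 0.00243)). Gpc6 was lower in the 3 dilated aortas than in the 2 others. Acan, aggrecan, fell alike (-1.21 (adjusted p = 0.00184)), and Fmod, fibromodulin, was higher with overlapping groups (1.13), a call that ended without normal replicate 1 or 3.

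Of 21 matrix proteases and their inhibitors 6 were called higher and 1 lower, against 10.2% and 13.6% of all genes tested. Timp4, a tissue inhibitor of metalloproteinases, was the evenly shifted one, at 398, 506, 592, 446 and 442 in MPS VII aortas, against 174, 165 and 138 in normal aortas (1.32 (adjusted p = 0.000799)). Mmp3, stromelysin 1, read 3271, 4136, 3533, 1204 and 2224 in MPS VII aortas, against 617, 1348 and 864 in normal aortas (1.51 (adjusted p = 0.0205)), with overlap at not dilated replicate 1. The macrophage elastase Mmp12 read 52.9, 217, 47.7, 35.8 and 31.4 in MPS VII aortas and was not above background in any normal aorta, at least 2.24-fold higher (adjusted p = 0.0264), with dilated replicate 2 the highest. The calls of Mmp3, Mmp12, Mmp13 (0.78) and the fall of Adamts1 (-0.68) all ended without normal replicate 1 and without normal replicate 3, that of Mmp12 also without normal replicate 2, and that of Mmp13 also without dilated replicate 2 or 3 or not dilated replicate 2.

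Some heat shock and immediate early genes were lower in MPS VII aortas, while most members of both lists did not pass. Of 20 heat shock and chaperone genes 8 were called lower, 5 of them alike, and 1 was called higher (median log2 difference -0.41). Of all genes tested, 13.6% were called lower and 10.2% higher. Hspa1a, the inducible heat shock protein 70, read 184, 251, 71.2, 257 and 257 in MPS VII aortas, against 1432, 1345 and 740.1 in normal aortas (-2.29 (adjusted p = 0.00253)). Its near-identical copy Hspa1b has no probe here, so the signal may belong to either. Hspa1l was not above background in any MPS VII aorta and read 149, 115 and 110.2 in normal aortas, at least 4.83-fold lower in MPS VII (adjusted p = 0.000747). Hspa2 read 1669, 1509, 1086, 1864 and 1845 in MPS VII aortas, against 3921, 3430.5 and 3674 in normal aortas (-1.20 (adjusted p = 0.00253)). Hsph1, a large heat shock protein, read 1922, 1765, 1204, 1667 and 1647 in MPS VII aortas, against 3750.1, 3976 and 2527 in normal aortas (-1.03 (adjusted p = 0.00606)), and Dnajb4, a co-chaperone, fell alike at a low level (-0.88). Dilated replicate 3 was the lowest array for Hspa1a, Hspa2, Hsph1 and Dnajb4. Chordc1 (-0.63) and Hspb6 (-0.90) were called lower too, calls that ended when any normal replicate was left out. The exception was Hspa9, the mitochondrial heat shock protein 70 (0.49, adjusted p = 0.0493), whose call ended under 14 alternatives, all those without a normal or a dilated replicate or not dilated replicate 1 among them. When every probe was tested in limma, a dimmer Hspa9 probe differed by 0.90 (adjusted p = 0.0128), while the probe used here did not pass (adjusted p = 0.0502).

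The heat shock factor HSF1 binds runs of GAA and its reverse TTC, of which GAANNTTC is a single pair, and this word too reads the same on both strands. It was found from 250 bases before to 50 after the start at 9 of 16 genes of the list with a promoter in the table (56.25%), against 530 of all 7248 tested genes (7.31%) and 2442 of all 27025 genes (9.04%). The list was chosen by function, and 4 of the 9 genes that hold the word were called lower (Hspa1a, Hspb6, Hsph1 and Chordc1), while the other 5 were not. Among all evenly shifted falls 29 of 411 held it (7.06%). Shown are the promoters of Hspa1a, the steepest fall of the list, and Chordc1, where the word stands at neighbouring places, with the word in capitals, each as 120 bases from GRCm38.p6. Hspa1a, chr17:34972197-34972316, minus strand, and Chordc1, chr9:18292167-18292286, plus strand.
Hspa1a: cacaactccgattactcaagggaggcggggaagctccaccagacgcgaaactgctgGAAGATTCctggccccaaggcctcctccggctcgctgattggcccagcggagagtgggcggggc
Chordc1: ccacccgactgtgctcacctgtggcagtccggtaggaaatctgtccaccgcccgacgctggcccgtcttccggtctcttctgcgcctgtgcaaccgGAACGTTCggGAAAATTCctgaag
Chordc1 holds the word at 2 neighbouring places and Hspa1a at 1 in these windows. Chordc1 read 877, 1208, 829.5, 1287 and 876 in MPS VII aortas, against 1565, 1594 and 1575 in normal aortas (-0.63 (adjusted p = 0.0195)), a smaller and less even fall than that of Hspa1a. Among 19 immediate early genes, which cells switch on within minutes of a stimulus, 8 were called lower and none higher. Of all genes tested, 13.6% were called lower. Jun read 466, 519.6, 469.7, 515 and 477 in MPS VII aortas, against 1026, 936 and 1282 in normal aortas (-1.06 (adjusted p = 0.00109)), and Atf3 41.4, 65, 41.8, 71.7 and 74.2 against 283, 244 and 299 (-1.59 (adjusted p = 0.000496)), both alike. Fos read 62.4, 87, 207, 367 and 540.0 in MPS VII aortas, against 1013, 735 and 1137 in normal aortas (-1.997 (adjusted p = 0.0192)), and Dusp1 3299, 3351, 2099, 9563 and 5774 against 14201, 10032 and 12718 (-1.53 (adjusted p = 0.0255)). Both were lower in the 3 dilated aortas than in the 2 others, and their calls ended without normal replicate 1 or 3, that of Dusp1 also without normal replicate 2 or dilated replicate 2. Fosb was called lower near background (-1.31).

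Of 27 genes of Wnt, TGF-beta and BMP signalling 5 were called higher and 8 lower, only Wif1 of them alike. Sfrp1, another secreted Wnt inhibitor, went the opposite way and unevenly, at 2197, 2067, 1481, 672 and 487 in MPS VII aortas, against 343, 353 and 359 in normal aortas (1.62 (adjusted p = 0.0281)). Ccn4, a Wnt target, read 821, 703, 827, 191 and 265 in MPS VII aortas, against 131, 130.0 and 201 in normal aortas (1.41 (adjusted p = 0.0417)). Both were higher in each of the 3 dilated aortas than in the 2 others, a difference that did not pass (adjusted p = 0.0509 for each). The call of Sfrp1 ended without dilated replicate 2 or 3 or any normal replicate, and that of Ccn4 also without dilated replicate 1. Id1, a target of BMP signalling, read 1210.4, 1086, 1350.3, 2280.3 and 1353 in MPS VII aortas, against 3236, 3487 and 2904 in normal aortas (-1.16 (adjusted p = 0.00615)). Of 14 ion channels and receptors of the vessel wall 3 were called higher and 4 lower, against 10.2% and 13.6% of all genes tested. Npy1r, a receptor of the constrictor neuropeptide Y, fell by 1.80 (adjusted p = 0.00421), with 217 to 664 in MPS VII and 1318 to 1911 in normal aortas. Ednrb, an endothelin receptor, read 1548, 2168, 3087, 1748 and 1092 in MPS VII aortas, against 577, 454 and 785 in normal aortas (1.54 (adjusted p = 0.00741)), and Agtr1a, an angiotensin II receptor, 134, 89.2, 96.7, 113 and 44.3 against 24.5, 17.8 and -1.21. No normal array was above background for Agtr1a, which was at least 3.5-fold higher (adjusted p = 0.00668). P2rx1, an ATP-gated channel, was called lower (-1.20), and that call ended without dilated replicate 2 or any normal replicate.

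Genes seen in only one of the groups were dim or uneven. Of the called genes, 174 rises were above background in no normal aorta and 55 falls in no MPS VII aorta. Probes were kept when above background on at least 2 arrays of either group, so such genes entered the test through the group where they were high. The counts also rest on unequal groups of 3 normal and 5 MPS VII arrays, and cannot be set against each other. After Ccl21c, the largest bounds among such rises were those of Ddah1, an enzyme that clears methylated arginines which block nitric oxide synthesis, at 317, 531, 552, 82.8 and 114 in MPS VII aortas (at least 9.57-fold higher, adjusted p = 0.00932), of Clec4d, a lectin receptor of macrophages (at least 7.87-fold), and of Hbb-b2, a beta globin (at least 7.29-fold). The call of Clec4d ended without normal replicate 3. Ddah1 and Clec4d were brighter in the 3 dilated aortas than in the 2 others. The largest bounds among the falls were those of Hspa1l, Vstm2b (at least 3.65-fold lower), the neurotrophic factor Nrtn (2.51-fold) and Vwc2, an inhibitor of BMP signalling (2.35-fold), and all 4 met the rule for shifted alike. Their MPS VII values all lay under the background bound, where the 50 added to each intensity flattens differences. Their evenness therefore says little about how alike the MPS VII mice were. Vstm2b, a membrane protein of the immunoglobulin family, read 4.16, -2.64, 5.8, 16.9 and 7.72 in MPS VII aortas, against 116, 65.8 and 106 in normal aortas.

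The least even called genes with at least a 2-fold difference were Gal3st2, Hbb-bt and Itih4. Gal3st2, a sulfotransferase, read 301, 235, 42.3, 178 and 275 in MPS VII aortas, against 59.9, 36.7 and 45 in normal aortas (1.27 (adjusted p = 0.0383)), with dilated replicate 3 at the normal level. Itih4, an inter-alpha-trypsin inhibitor chain, read 2039, 1228, 5914, 1080.4 and 1821 in MPS VII aortas, against 6111, 5754 and 7405 in normal aortas (-1.67 (adjusted p = 0.0272)), again with dilated replicate 3 at the normal level. The call of Itih4 ended without dilated replicate 2 or any normal replicate, and that of Gal3st2 when any array other than dilated replicate 3 was left out.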

How the data were processed

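Expression was measured in total RNA of 8 ascending aortas, 1 Illumina array per mouse, after extraction with Trizol and a Qiagen column, DNase treatment and biotin labelling, per the labels' protocols. The submitters' processing notes name GenomeStudio and Partek, with no role. The authors deposited 1 intensity per probe for 25697 probes, on a linear scale. The values show that a background had been subtracted (27.8% to 28.0% lie below 0 on each array) and that the arrays share a distribution (sorted values differ by at most 0.94). The genome build is not given in the sources used here, nor is the way the arrays were normalized. A second deposited table, of unnormalized signals, was not used, because 16 of its column names could not be tied to 1 sample each, and the planned start from it was not run.

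The platform annotation gives 1 symbol for 23141 probes and none for 2556, and all 23141 matched the RefSeq gene table of GRCm38.p6. The noise SD (11.0) came from the values below 0, and 25.6 is its one-sided 0.01 bound. Probes above it on at least 2 arrays were kept (12913), with the brightest probe for each gene. Among 744 further probes of called genes, 88.6% had the same sign. The fit was limma 3.58.1 in R 4.3.3 (lmFit and eBayes) on log2(intensity + 50), with 2 group means, 6 residual and 3.80 prior degrees of freedom, and two-sided Benjamini-Hochberg adjustment over all 10040 genes. The contrast of dilated with not dilated aortas came from a fit with 3 group means. Where a group is nowhere above background, the ratio is a bound: the brighter group's mean log2 value against the dim group's mean of the higher of 25.6 and its own value. Precision is limited by the number of arrays. Scripts were tested on simulated data. Alternatives changed the offset, floor, filter, normalization, probes per gene, array weights, variance prior, covariates, contrast, replicate block, evenness bound and arrays left out.

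Genes were named by a rule: Gusb and its neighbours, the 12 rises and 12 falls with the largest least shift among genes above background on all 8 arrays, 4 bounded rises and 4 bounded falls, the 3 least even genes, and up to 4 called members of each list with exceptions. Genes beyond it were named after their values were seen. The gene lists, the rule and the comparison were chosen with earlier results of these data known.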

Additional observations from a re-analysis of the deposited data

Results flagged for a closer look

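A single MPS VII array lay far from the other 4 at 9 named genes, by Dixon's test on the log2 scale at its 95% critical value of 0.71, among 165 genes looked at. Chance flags about 1 in 20 such groups. Dilated replicate 3 was the distant array for 5 of them: Ccl8 (4577, above the others), Pi16 (4819, above the others), Bmpr1b (53.5, below), Col15a1 (1136, below) and Myh11 (7142, below). Dilated replicate 1 was distant for Wif1 (69.6, above) and Eln (11665, above), dilated replicate 2 for Mmp12 (217, above) and not dilated replicate 1 for Man2b1 (3018, below). Of these genes, the calls of Col15a1, Myh11, Eln and Mmp12 also ended when a normal array was left out, as given above, while Wif1, Ccl8, Bmpr1b, Man2b1 and Pi16 passed without any single array.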

How the results depend on the processing

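Leaving out each array in turn gave 1123 to 2299 called genes, 622 to 1146 genes shifted alike and 0 to 3 genes between dilated and not dilated aortas. With the adipocyte list mean as a covariate 15 genes were called, 12 of them alike, and 1 gene differed between dilated and not dilated aortas. That last count was 3 with an offset of 100, 4 without the filter on dim probes, 3 with array weights and 19 with sex as a covariate. Counts of genes shifted alike were 1850 and 118 at evenness bounds of 0.3 and 0.7 and 2243 with no bound, by the construction of the rule. Every other alternative with all 8 arrays gave between 2115 (no filter on dim probes) and 3490 (array weights) called genes, and between 740 and 986 shifted alike. Cyclic loess called 1145 higher and 1041 lower genes, with a median over all genes of -0.0039, against -0.053 without it. The 2389 called genes kept their direction in every alternative except the fit with no filter (2388 did), the adipocyte covariate (2295 did) and the filter on 3 arrays, which tested 2350 of them, all with the same sign. Under that covariate the log2 differences of Acta2 (0.34), Cidea (-0.14), Cox5a (-0.14), Cox5b (-0.14) and Hspa9 (-0.12) reversed, and Hba-a1 reversed with age as a covariate (0.0016) and without dilated replicate 1 (-0.53 to 0.11 with each array left out). The cause was not tested. Of 3630 such values for 165 named genes, 385 lost a call, 4 gained one and 7 turned direction. The labels do not pair replicate numbers. Deviations from the group means correlated at -0.19 to 0.33 between same-numbered arrays and at -0.33 to 0.16 between differently numbered ones. Deviations within a group cancel out, so these correlations are tied to each other and cannot decide on a pairing. With the replicate number as a block, 2263 genes were called, 753 alike and 0 between dilated and not dilated. The neqc fit of unnormalized signals was not run. Values near the background bound limit what can be said of dim genes.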

Other observations

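Of the 2 beta globin genes tested, Hbb-b2 was called higher and Hbb-bt lower. Hbb-b2 read 71.8, 119, 205, 581 and 220.1 in MPS VII aortas (dilated replicates 1 to 3, then not dilated replicates 1 and 2), against -16.8, -16.9 and -12.6 in normal aortas, where it was not above background (at least 7.29-fold higher, adjusted p = 0.00319). Hbb-bt read 167, 276, 371, 1065 and 348 in MPS VII aortas, against 1412, 773 and 1017 in normal aortas (-1.37 (adjusted p = 0.0473)), with overlap at not dilated replicate 1. The alpha globin gene Hba-a1 averaged 37513 ± 19473 in MPS VII and 39837 ± 7550.2 in normal aortas (SD, n = 5 and 3) and did not pass (-0.29). Beta globin genes are closely alike in sequence. In the normal aortas the Hbb-b2 probe was not above background where Hbb-bt read 773 to 1412. The call of Hbb-bt ended under 15 alternatives, each array but not dilated replicate 1 left out among them. Why the 2 beta globin genes went opposite ways, and whether their probes share signal in the MPS VII aortas, was not tested.

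Some evenly shifted genes lie outside every list used. Pdlim4, an actin-binding LIM protein, read 573, 543, 550.2, 522 and 575 in MPS VII aortas, against 1318, 1647 and 1359.9 in normal aortas (-1.30 (adjusted p = 0.000331), ratio of least to most shifted array 0.91), so the 5 MPS VII mice lay within a narrow band below the normal mice. Gpr176, an orphan receptor, read 1005, 854, 609, 282 and 316 in MPS VII aortas, against -2.37, 13.4 and 39.2 in normal aortas (3.21 (adjusted p = 0.00148)), and was highest in the 3 dilated aortas. Kcnk1, a potassium channel, read 43.2, 29.6, 17.7, 29 and 22.7 in MPS VII aortas, against 359, 167 and 309.7 in normal aortas (-2.02 (adjusted p = 0.000749)). Tcap, titin-cap, a muscle protein, is on the cardiomyocyte list and was not shifted alike (ratio 0.22). It fell by 2.45 (adjusted p = 0.00931), at 1542, 1299, 656, 925 and 4604 in MPS VII aortas, against 6899, 8039 and 9134 in normal aortas. These genes were picked after their values were seen.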
